A study of Macaca mulatta with 8 samples.

Results

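The genes described here are the forkhead (FOX), SOX, GATA, T-box (TBX), Krüppel-like (KLF) and HOX transcription factors of rhesus macaque granulosa cells. They were chosen by name, with earlier results of these data known, as genes whose single symbol in the platform annotation begins with one of these family names. There were 102 of them among 14132 genes measured. Of the 102, 30 were FOX, 15 SOX, 5 GATA, 11 TBX, 15 KLF and 26 HOX genes. Granulosa cells were collected either after hCG, from follicles that had received follicle-stimulating hormone (FSH) and then human chorionic gonadotropin (hCG, the ovulatory stimulus) in the animal, titled VVM-GC, or before hCG, from follicles stimulated with FSH only, titled PM-GC. Both groups had therefore been exposed to FSH, and each held 4 RNA samples on an Affymetrix rhesus macaque array of their own. The design text calls the cells mural granulosa cells, which line the follicle wall, whereas the source labels name cumulus-oocyte complexes as their origin. The labels give neither age, nor the time from hCG to collection, nor the animal behind each sample, so p-values measure the spread between these samples, which may be technical.

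These families bind DNA through a domain that each family shares: a winged helix in FOX proteins, an HMG box in SOX proteins, zinc fingers in GATA and KLF proteins, a T-box in TBX proteins and a homeodomain in HOX proteins. In the mammalian follicle, GATA4 and GATA6 are known to act on genes of steroid synthesis and of inhibin, and FOXO1 is known in rodents to hold back differentiation of growing granulosa cells until insulin and AKT signals move it out of the nucleus. FOXM1 drives genes of mitosis in dividing cells. Several KLF genes respond early to growth factors and hormones, and HOX genes set position along the body axis in the embryo. FOXL2, FOXO3 and KLF9, which are also known in the ovary, were not analysed here.

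Values are log2 intensities of the brightest probe set of each gene, and differences are after hCG minus before hCG with their standard error (SE). The test was limma over all 14132 genes, with a threshold of 0.05 on the Benjamini-Hochberg adjusted p. Array medians lay between 5.44 and 5.54, and pairs of arrays correlated at 0.974 to 0.984 after hCG, 0.984 to 0.988 before hCG and 0.935 to 0.957 across the groups. In bulk samples such as these, a lower share of cells with a transcript and less transcript per cell cannot be told apart.

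Among the 102 genes, 7 rose and 9 fell after hCG, which makes 16 past the threshold. This is 15.7%, against 23.8% of all genes (11.3% higher and 12.5% lower). Only 62 of the 102 had a mean signal above 5.50, the median of all probe sets, and 15 of these 62 (24.2%) passed, against 29.7% of all genes above that signal (14.5% higher and 15.2% lower). Of the 40 at or below it, 1 passed, as lower (2.5%), against 7.73% of all genes there (2.51% higher and 5.21% lower). The groups did not overlap for 24 of the 102 genes (23.5%), against 27.2% of all genes. The median difference of the 102 was -0.14, and that of all genes was -0.09. By family, 8 of 30 FOX genes passed (2 higher, 6 lower), 3 of 15 SOX genes (1 higher, 2 lower), 1 of 5 GATA genes (lower), 3 of 15 KLF genes (all higher), 1 of 26 HOX genes (higher) and none of 11 TBX genes.

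**Figure D1:**
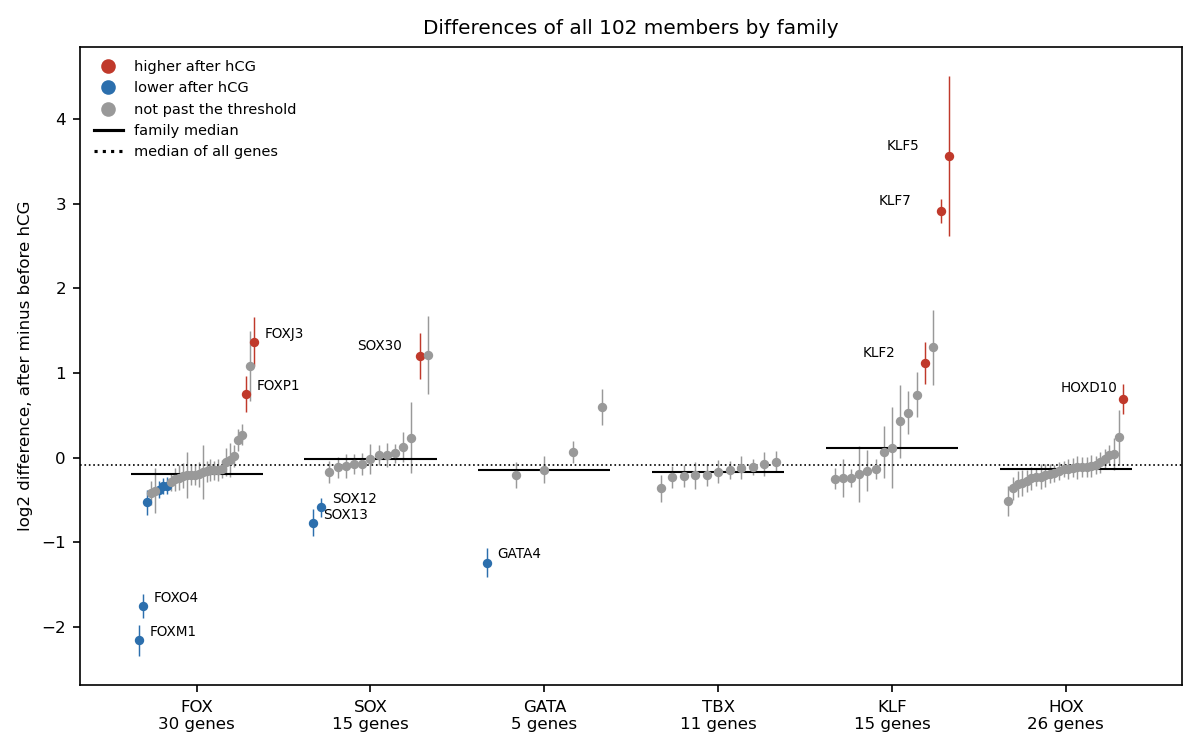
Log2 difference, after minus before hCG (vertical axis), of all 102 genes with SE bars, sorted within each family (horizontal axis); red points passed the threshold as higher after hCG, blue points as lower, grey points did not pass. Black bars are family medians and the dotted line is the median of all genes, -0.09; KLF5 and KLF7 stand at 3.56 and 2.91, FOXM1 and FOXO4 at -2.16 and -1.75.

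The Krüppel-like factors held the largest increases of the 102 genes. KLF7, a factor known for its part in nerve and fat cell differentiation, read 9.90, 10.19, 9.83 and 9.56 after hCG, against 6.97, 7.11, 6.90 and 6.84 before hCG. All 4 arrays after hCG lay more than 2 log2 units above all 4 arrays before hCG. The increase was 7.53-fold (log2 difference 2.91, SE 0.14, adjusted p = 2.07e-06), and all 3 probe sets of KLF7 passed as higher, by 1.40 to 2.91.

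KLF5, a factor of epithelial and proliferating cells, read 9.73, 9.73, 8.52 and 4.91 after hCG, against 4.82, 5.38, 4.68 and 3.78 before hCG. Arrays 1 to 3 after hCG were far above the group before hCG, whereas array 4 lay within its range. The mean was 8.22 ± 2.28 after hCG and 4.66 ± 0.66 before hCG (SD, n = 4 each), an 11.8-fold increase (log2 difference 3.56, SE 0.95, adjusted p = 0.0224). The other probe set of KLF5 gave the same picture, with 9.09, 9.52, 7.98 and 4.98 after hCG against 4.76, 5.15, 4.75 and 4.25 before hCG. Without array 4 after hCG the difference was 4.67 (adjusted p = 0.000111). Leaving out array 1 or 2 after hCG ended the call (3.06 each, adjusted p = 0.0613 and 0.0595), and so did leaving out array 3 or 4 of the other group (adjusted p = 0.0538 and 0.0674).

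KLF2, known in endothelium and lymphocytes as a factor that favours quiescence, read 9.74, 9.31, 9.08 and 8.58 after hCG, against 8.18, 8.31, 8.19 and 7.58 before hCG. The groups did not overlap, and KLF2 rose 2.17-fold (log2 difference 1.12, SE 0.25, adjusted p = 0.00978). Its dimmer probe set differed by 0.54 and did not pass (adjusted p = 0.168).

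The other 12 KLF genes did not pass. KLF12, a repressor, had the largest difference of the 12, at 1.30 (SE 0.44, adjusted p = 0.0619). It read 9.11, 9.09, 9.58 and 10.12 after hCG, against 9.37, 7.03, 8.43 and 7.86 before hCG. Array 1 before hCG was the one that overlapped the other group, and without it the difference was 1.70 (adjusted p = 0.011). The average of the 7 probe sets of KLF12 also passed, with 0.63 (adjusted p = 0.0443). KLF15, a glucocorticoid-responsive factor of metabolism, had a difference of 0.74 (adjusted p = 0.0741; 0.0306 when array 1 after hCG was left out), and KLF13 one of 0.53 (adjusted p = 0.169).

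KLF6, KLF10, KLF11 and KLF4, which are known as early response genes in many cells, had bright probe sets and small mean differences. KLF6 averaged 12.16 ± 0.64 after hCG and 12.09 ± 0.36 before hCG (difference 0.07, 95% interval -0.61 to 0.75), and its sign turned when single arrays were left out. KLF10 differed by -0.15 (95% interval -0.70 to 0.39) and KLF11 by -0.19 (95% interval -0.94 to 0.56). KLF4 read 10.59, 9.88, 8.40 and 8.82 after hCG, against 9.96, 9.68, 9.003 and 8.57 before hCG. Its difference of 0.12 had a 95% interval of -0.95 to 1.19, so these arrays do not exclude a change within that range in either direction. Of the remaining KLF genes, KLF8 differed by 0.43, KLF3 by -0.24, and KLF1, KLF14 and KLF17 by -0.14, -0.24 and -0.25.

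Among forkhead genes, the largest decreases were those of FOXM1 and FOXO4. FOXM1, the activator of genes of mitosis, read 5.84, 6.11, 6.05 and 5.53 after hCG, against 8.10, 8.45, 7.82 and 7.79 before hCG. Each array after hCG lay more than 1 log2 unit below each array before hCG, and the mean was 4.47-fold lower after hCG (log2 difference -2.16, SE 0.18, adjusted p = 4.88e-05). FOXO4, a forkhead factor under insulin and AKT control, read 6.42, 6.16, 6.41 and 6.22 after hCG, against 8.09, 8.36, 7.83 and 7.93 before hCG. It was 3.36-fold lower after hCG (log2 difference -1.75, SE 0.14, adjusted p = 3.21e-05). Both genes are measured by 1 probe set each, so no other probe set could be set beside them.

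FOXO1, the paralog of FOXO4 best studied in granulosa cells, did not pass. It averaged 10.37 ± 0.45 after hCG and 10.58 ± 0.45 before hCG (difference -0.20, 95% interval -0.81 to 0.40, adjusted p = 0.624). FOXO6 differed by -0.39 (adjusted p = 0.334). The array measures transcripts only, and the place of FOXO proteins in the cell was not measured.

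FOXJ3 and FOXP1 were the forkhead genes that rose. FOXJ3, known in muscle as an activator of MEF2C, read 11.56, 11.03, 10.37 and 11.38 after hCG, against 10.06, 10.08, 9.63 and 9.10 before hCG. The groups did not overlap, and the increase was 2.58-fold (log2 difference 1.37, SE 0.29, adjusted p = 0.00768). Its dimmer probe set rose too, by 0.78 (adjusted p = 0.0307), although its groups overlapped. FOXP1, a repressor with parts in B cells, lung and heart, read 11.26, 11.46, 11.53 and 11.38 after hCG, against 11.22, 10.49, 10.78 and 10.13 before hCG. Array 1 before hCG came close to the group after hCG, and the increase was 1.68-fold (log2 difference 0.75, SE 0.21, adjusted p = 0.0278). Of the 4 probe sets of FOXP1, 2 passed as higher, and the average of the 4 did not (0.54, adjusted p = 0.0956). The FOXP1 call was lost when array 2, 3 or 4 after hCG, or array 2 or 4 before hCG, was left out (adjusted p = 0.0519 to 0.0719).

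FOXN2 had non-overlapping groups without passing (difference 1.08, adjusted p = 0.0882). It read 7.21, 6.002, 5.13 and 5.20 after hCG, against 4.85, 4.90, 4.39 and 5.06 before hCG, so the difference came mainly from arrays 1 and 2 after hCG. Without array 3 after hCG it passed (1.33, adjusted p = 0.0419), but its other probe set differed by 0.02.

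The other 4 forkhead genes that fell did so by small amounts from dim signals. FOXA3, a factor of liver, fell by 0.53, FOXC2, a factor of vessels and mesenchyme, by 0.38, FOXN1, a factor of thymus epithelium, by 0.34, and FOXI1, a factor of ion-transporting epithelial cells, by 0.33. Their means were 4.96 to 5.83 after hCG and 5.33 to 6.17 before hCG, near the median signal of 5.50, so the table does not show whether these genes are expressed. The groups did not overlap for any of the 4. Each lost its call when some arrays were left out: 5 of the 8 arrays for FOXA3 and FOXC2, 6 for FOXN1 and 7 for FOXI1. With all 8 arrays, FOXI1 also lost its call with median centring, repeated quantile normalization, the signal filter and the fit over all probe sets (adjusted p = 0.0504 to 0.0729). A limma fit that paired same-numbered arrays (replicate block) ended it too (adjusted p = 0.0893). FOXN1 lost its call with median centring (adjusted p = 0.0589) and with the replicate block (adjusted p = 0.0705). FOXC2 lies below the signal filter and was not tested under it. The remaining 22 FOX genes did not pass, with differences from -0.41 for FOXN4 to 1.08 for FOXN2. FOXC1 differed by -0.05, FOXP2 by -0.03 and FOXN3 by -0.17. Of all 30 FOX differences, 24 were below 0 (80%), and so were 62.0% of the differences of all genes. These shares were not matched for signal. Of the 30 FOX genes, 11 were at or below the median signal, where 5.21% of all genes passed as lower and 2.51% as higher.

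**Figure D2:**
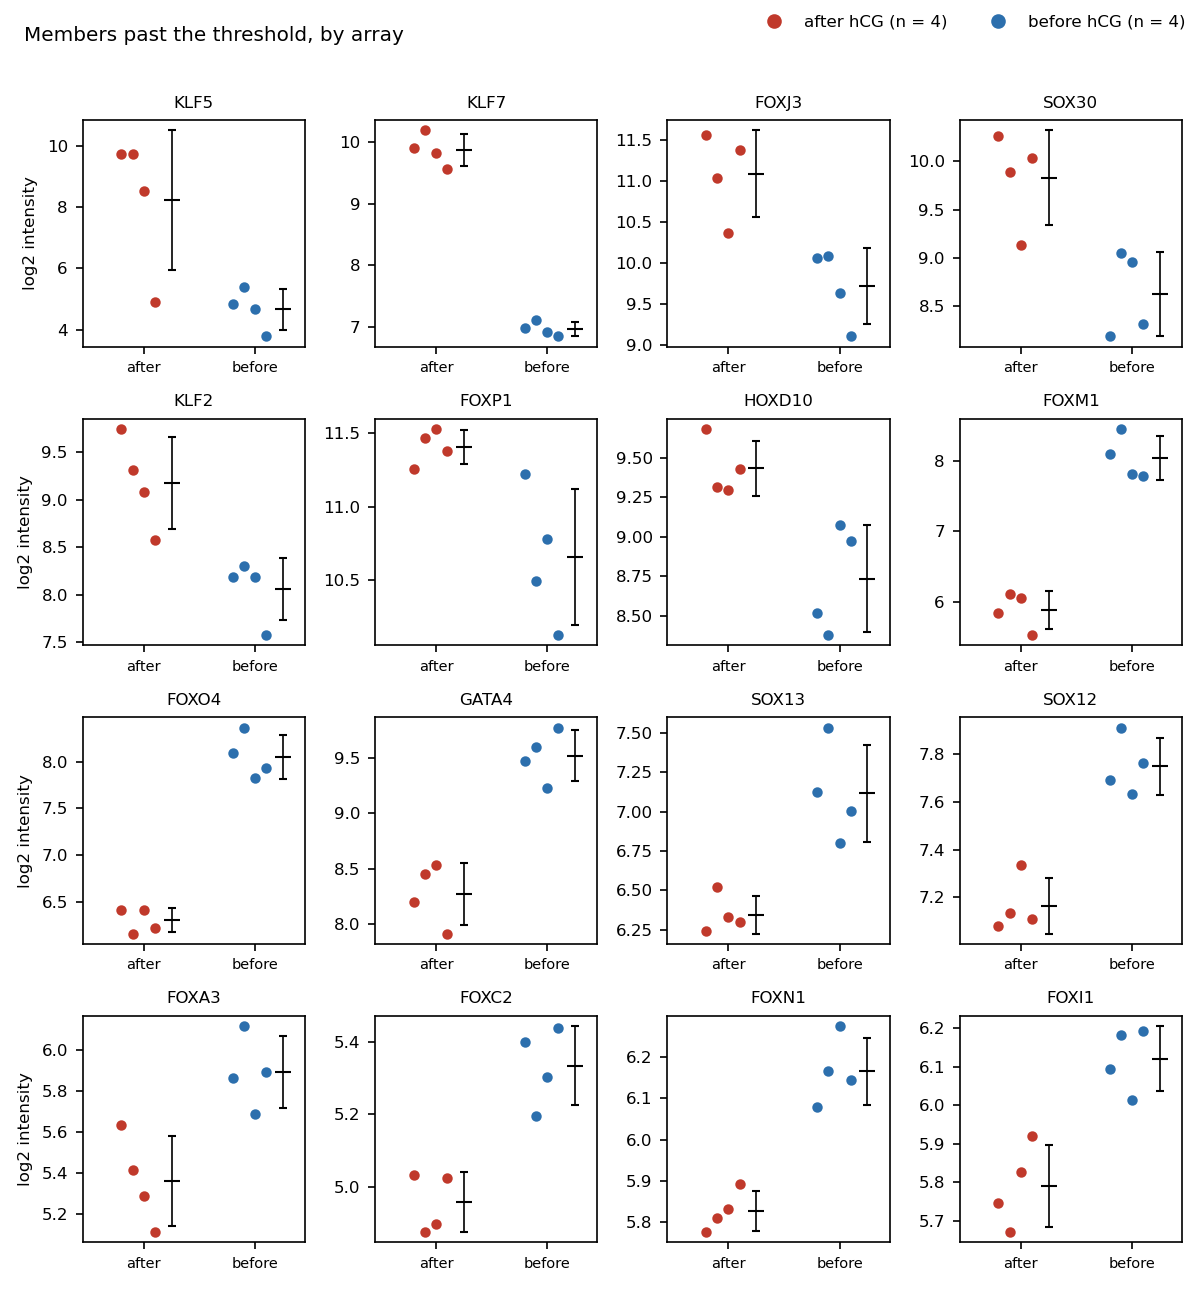
Log2 intensity (vertical axis, its range set for each gene and not starting at 0) of the 16 genes that passed, for 4 arrays after hCG (red, left) and 4 arrays before hCG (blue, right); black bars are mean ± SD. KLF7, FOXM1 and FOXO4 show the widest gaps between the groups, and KLF5 is the gene whose groups overlap, through array 4 after hCG at 4.91.

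GATA4 was the member of its family that passed the threshold. It read 8.20, 8.45, 8.54 and 7.92 after hCG, against 9.47, 9.60, 9.23 and 9.77 before hCG, with no overlap. The mean was 2.36-fold lower after hCG (log2 difference -1.24, SE 0.17, adjusted p = 0.00067). A further probe set of GATA4 fell by 0.89 (adjusted p = 0.00238), and the dimmest of the 3 differed by -0.66 (adjusted p = 0.083). GATA6, its close paralog, averaged 12.18 ± 0.34 after hCG and 11.59 ± 0.34 before hCG. Its difference of 0.60 (SE 0.21) did not pass (adjusted p = 0.0704, or 0.0432 without array 3 before hCG).

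The change of GATA4 and that of GATA6 were set against each other within each array. The log2 ratio of GATA4 to GATA6 was -3.73, -3.54, -3.59 and -4.77 after hCG, against -2.20, -1.91, -2.76 and -1.40 before hCG, so the groups did not overlap. The size of such a ratio depends on the probes, and only its shift of -1.84 between the groups can be read. An exact two-sided permutation test gave p = 0.0286, the smallest that 4 against 4 arrays allow. It was adjusted over 14 pairs of paralogs chosen by family relation, which gave 0.2. KLF6 and KLF7 were the other pair at that smallest p, with a shift of -2.84 between KLF6 and KLF7. The remaining 12 pairs had p-values of 0.0571 to 0.886, and none of the 14 passed after adjustment. With a smallest p of 0.0286, a pair can pass only if most of the 14 pairs reach that p. Failing after adjustment therefore says little about the shift of any single pair.

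GATA2 and GATA3 did not pass, with differences of 0.06 and -0.21. GATA1, the factor of red blood cell precursors, differed by -0.14 (adjusted p = 0.575).

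**Figure D3:**
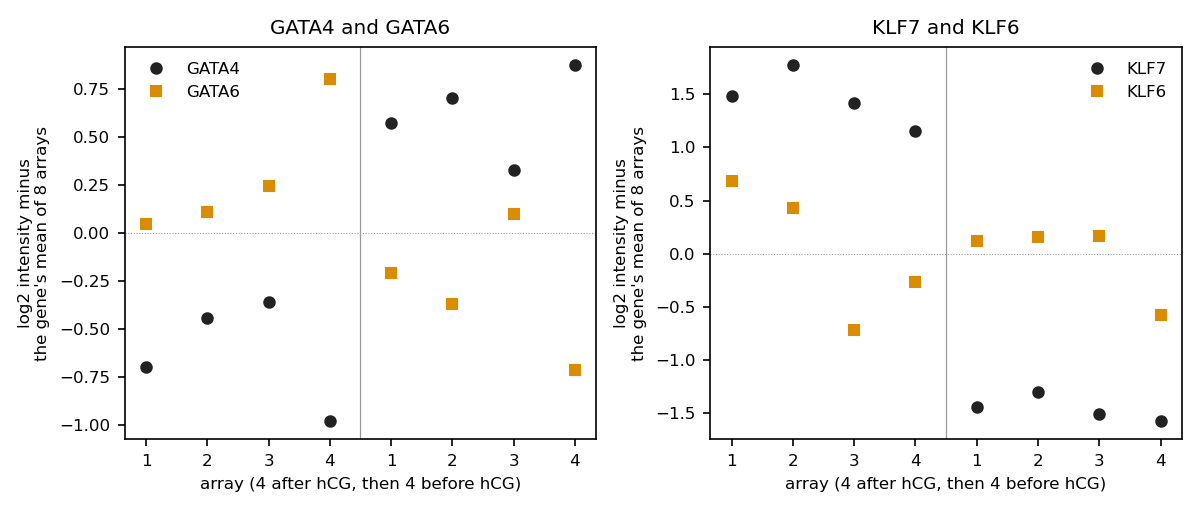
Log2 intensity minus the gene's own mean over all 8 arrays (vertical axis) for GATA4 and GATA6 (left) and for KLF7 and KLF6 (right), with the 4 arrays after hCG to the left of the line and the 4 before hCG to its right. GATA4 is below its mean in each array after hCG, while GATA6 is not; KLF7 is above its mean in each array after hCG, while KLF6 lies on both sides.

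Among SOX genes, SOX13 and SOX12 fell and SOX30 rose. SOX13, a SOXD factor, read 6.24, 6.52, 6.33 and 6.30 after hCG, against 7.12, 7.53, 6.80 and 7.004 before hCG (log2 difference -0.77, SE 0.16, adjusted p = 0.0066). SOX12, a SOXC factor, read 7.08, 7.13, 7.34 and 7.11 after hCG, against 7.69, 7.91, 7.63 and 7.76 before hCG (log2 difference -0.58, SE 0.11, adjusted p = 0.00439). Neither gene had overlapping groups, and both decreases were under 2-fold.

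SOX30, known as a factor of male germ cells, read 10.26, 9.89, 9.13 and 10.03 after hCG, against 8.19, 9.05, 8.96 and 8.32 before hCG. The groups did not overlap, though array 3 after hCG was close to arrays 2 and 3 before hCG. It rose 2.30-fold (log2 difference 1.20, SE 0.28, adjusted p = 0.0112). Its other probe set had non-overlapping groups and a difference of 1.02 that did not pass (adjusted p = 0.117). Probe sequences were not used here, so the match of these probe sets to SOX30 rests on the platform annotation.

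SOX6, a SOXD factor of cartilage and muscle, gave different readings by probe set. The brightest read 8.39, 6.73, 5.77 and 6.54 after hCG, against 5.67, 5.83, 5.32 and 5.75 before hCG (difference 1.21, adjusted p = 0.0851). Another of its 6 probe sets read 9.23, 6.96, 5.12 and 6.22 after hCG, against 3.79, 4.60, 4.42 and 4.09 before hCG, and passed (2.66, adjusted p = 0.0311), while the other 4 differed by -0.16 to 0.83 and did not. In both probe sets array 1 after hCG was the highest and array 3 the lowest of its group. VWF, an endothelial marker, had the same extremes, with 9.10, 6.80, 5.88 and 7.58 after hCG against 6.16, 6.29, 5.77 and 6.10 before hCG. VWF was picked after its values were seen: of the 11 endothelial markers, 3 (VWF, PECAM1 and KDR) were highest in array 1 and lowest in array 3 after hCG, and 2 (EGFL7 and ROBO4) the reverse. The part of endothelial cells in the SOX6 reading was not tested. Without array 3 after hCG, the brightest probe set of SOX6 passed (1.57, adjusted p = 0.0198).

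SOX4, a SOXC factor with a bright probe set, varied widely within both groups: 10.71, 11.20, 11.25 and 11.88 after hCG, against 11.70, 10.61, 11.87 and 9.92 before hCG. Its difference of 0.24 had a 95% interval of -0.71 to 1.18. SOX9, which directs testis development, averaged 5.91 ± 0.13 after hCG and 6.03 ± 0.18 before hCG (difference -0.12, 95% interval -0.40 to 0.17). The SOXF genes of vessels, SOX7, SOX17 and SOX18, differed by 0.05, 0.03 and -0.07, and the other 6 SOX genes by -0.17 to 0.13, among them SOX5 (-0.02) and SOX11 (-0.10).

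Of 26 HOX genes 1 passed (3.85%), and of 11 TBX genes none, against 23.8% of all genes. Above the median signal of 5.50, 1 of 11 HOX genes and none of 4 TBX genes passed, against 29.7% of all genes there. With so few genes above that signal, nothing particular to these families is read from the counts. HOXD10, a posterior gene of the HOXD cluster, read 9.68, 9.32, 9.30 and 9.43 after hCG, against 8.52, 8.38, 9.07 and 8.97 before hCG. The groups did not overlap, and HOXD10 rose 1.62-fold (log2 difference 0.70, SE 0.18, adjusted p = 0.0179). The call was lost without array 1 before hCG (0.62, adjusted p = 0.0532). It rests on 1 bright probe set: the other 2 were dim and differed by -0.10 and -0.08, and the average of the 3 did not pass (0.17, adjusted p = 0.302). The other 5 HOXD genes differed by -0.51 for HOXD13 (adjusted p = 0.0607) to -0.02 for HOXD3.

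None of the 9 HOXA, 7 HOXB and 4 HOXC genes passed, against 23.8% of all genes. Their differences ran from -0.36 for HOXB6 to 0.24 for HOXA9, and 17 of these 20 were below 0, against 62.0% of all genes. That share of all genes was not matched for signal. Of the 26 HOX genes, 15 had a mean signal at or below the median of 5.50, where 7.73% of all genes passed, and none of those 15 did. HOXA9 read 3.35, 2.91, 2.83 and 4.50 after hCG, against 3.003 to 3.31 before hCG, so array 4 after hCG stood alone. None of the 11 TBX genes passed, and 7 of them had a mean signal at or below 5.50. TBX2 and TBX3, which act in many developing organs, differed by -0.36 (adjusted p = 0.137) and -0.23 (adjusted p = 0.262), and all 11 differences lay between -0.36 and -0.05. The average of the TBX2 probe sets passed as lower (-0.39, adjusted p = 0.0401). The 4 probe sets of TBX3 differed by -0.23 to 0.60 and none passed, so the sign of TBX3 depends on the probe set.

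Several probe sets measured 49 of the 102 genes. In no gene did probe sets pass in opposite directions. In the fit over all probe sets, 13 of the 195 probe sets of these genes passed as higher and 11 as lower, together 12.3%, against 14.1% of all probe sets in that fit (7.24% higher and 6.85% lower). Besides the genes that passed on their brightest probe set, KLF3, SOX6 and TBX2 had 1 probe set each that passed.

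**Figure D4:**
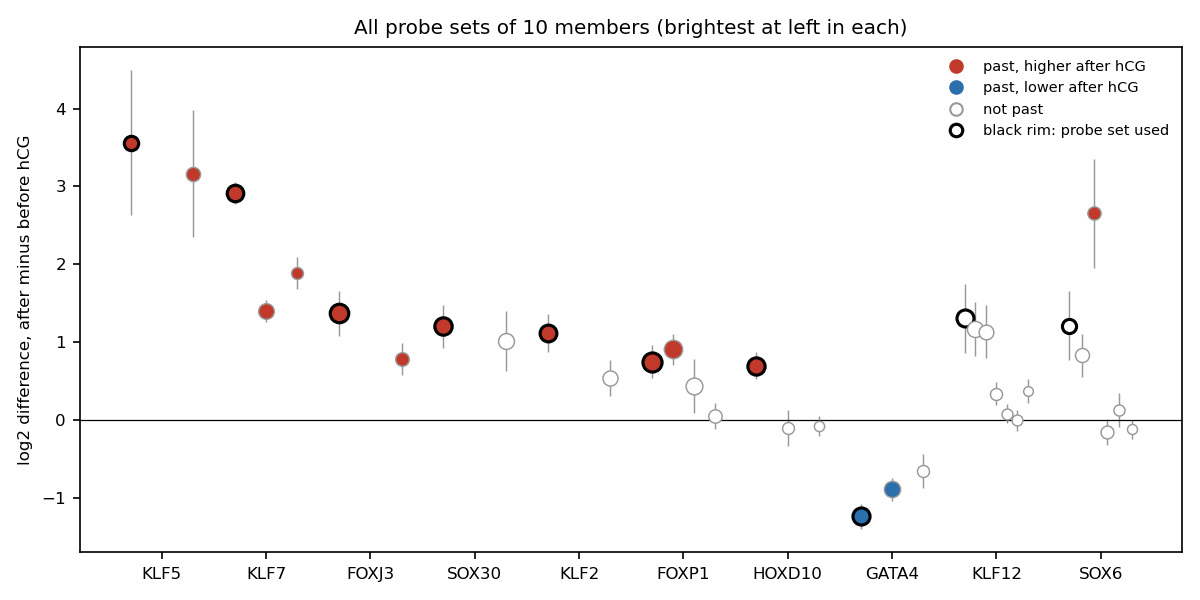
Log2 difference, after minus before hCG, with SE bars, for every probe set of 10 genes (horizontal axis), the brightest at the left of each; larger circles have a higher mean signal, filled circles passed in the fit over all probe sets, and a black rim marks the probe set used for the gene. The 3 probe sets of KLF7 are all filled, while HOXD10 has 1 filled circle of 3 and SOX6 1 of 6.

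Lists of targets and partners of these factors were read by their counts, beside the shares of all genes, 23.8% past the threshold, and of all genes above the median signal, 29.7%. Of 15 measured genes known to be activated by FOXM1, 13 fell and none rose (median difference -1.47, against -0.09 over all genes). SKP2, a subunit of a ubiquitin ligase, fell by 2.68, TOP2A, a topoisomerase, fell by 2.38 and CCNA2, cyclin A2, fell by 2.28. CDC25B and NEK2 were the members that did not pass, at 0.32 and -0.36. Other factors also drive these genes, and the list describes their transcripts, not FOXM1 activity.

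Of 24 measured targets of FOXO proteins, 8 rose and 1 fell (median 0.45), while FOXO4 fell and FOXO1 did not pass. IGFBP1, a binding protein of insulin-like growth factors, increased by 4.27 (SE 0.43), GADD45A, a stress gene, by 4.24 (SE 0.44) and CDKN1A, an inhibitor of the cell cycle, by 3.68 (SE 0.13). TRIM63, a ubiquitin ligase of muscle, was the member that fell, by 0.70. As for FOXM1, the list describes transcripts, not FOXO activity. In the list of insulin and AKT signalling to FOXO, 6 of 21 genes rose and 2 fell (median 0.16). Of the 21, 19 had a signal above the median, where 14.5% of all genes rose and 15.2% fell, and nothing particular to this list is read from its count. The risers included IRS2, an adaptor of the insulin receptor (1.99, SE 0.38), PDPK1, the kinase that activates AKT (1.60, SE 0.31), and PIK3CB, a catalytic subunit of phosphatidylinositol 3-kinase (0.91, SE 0.16). SKP2, which this list shares with the FOXM1 targets, and AKT2, at -0.56, were the members that fell. IRS2 is also counted among the FOXO targets that rose, so the counts of these lists are not independent.

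Of 13 measured granulosa genes known as targets of GATA4, GATA6 or FOXL2, 9 fell and 1 rose (median -0.68). INHBB, an activin and inhibin subunit, fell by 2.50, CYP19A1, the aromatase, fell by 2.08 and HSD17B1, which makes oestradiol, fell by 1.90. STAR, which moves cholesterol into mitochondria, rose by 3.60. The inhibin subunits and steroid enzymes are also granulosa markers, so this list and the marker list are not independent. Of 8 GATA cofactors, 3 fell and none rose, and 7 of the 8 lay above the median signal, where 15.2% of all genes fell. With so few genes, nothing is read from that count. The nuclear receptors NR5A2 and NR5A1 fell by 1.51 and 0.76, and the adaptor LDB1 by 0.52.

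The TALE homeodomain proteins, which bind DNA together with HOX proteins, included larger changes than any HOX gene. PKNOX2 read 8.15, 7.85, 8.003 and 7.16 after hCG, against 11.66, 10.93, 10.93 and 10.70 before hCG, and fell by 3.26 (SE 0.26, adjusted p = 2.98e-05). MEIS2 read 9.14, 8.68, 8.06 and 9.23 after hCG, against 7.16, 6.78, 7.25 and 6.96 before hCG, and rose by 1.74 (SE 0.25, adjusted p = 0.000813). The other 4 of the 6 measured did not pass. None of 8 SP factors, the zinc finger proteins closest to the KLF family, passed, with differences of -0.38 for SP1 to 0.52 for SP2.

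In the list of gonadal sex determination, 2 of 19 genes rose and 5 fell, against 11.3% and 12.5% of all genes. The median of the list was -0.14, near the -0.09 of all genes. RUNX1, a factor of fetal granulosa cells in mice, rose by 4.03 (SE 0.40) and WT1, a zinc finger factor of the early gonad, rose by 3.94 (SE 0.38). FGFR2, a receptor of fibroblast growth factors, fell by 3.13 (SE 0.30), NR0B1, a nuclear receptor, by 0.83 and ESR1, an oestrogen receptor, by 0.82. SOX9 and GATA4, which act in the same process, are described above.

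**Figure D5:**
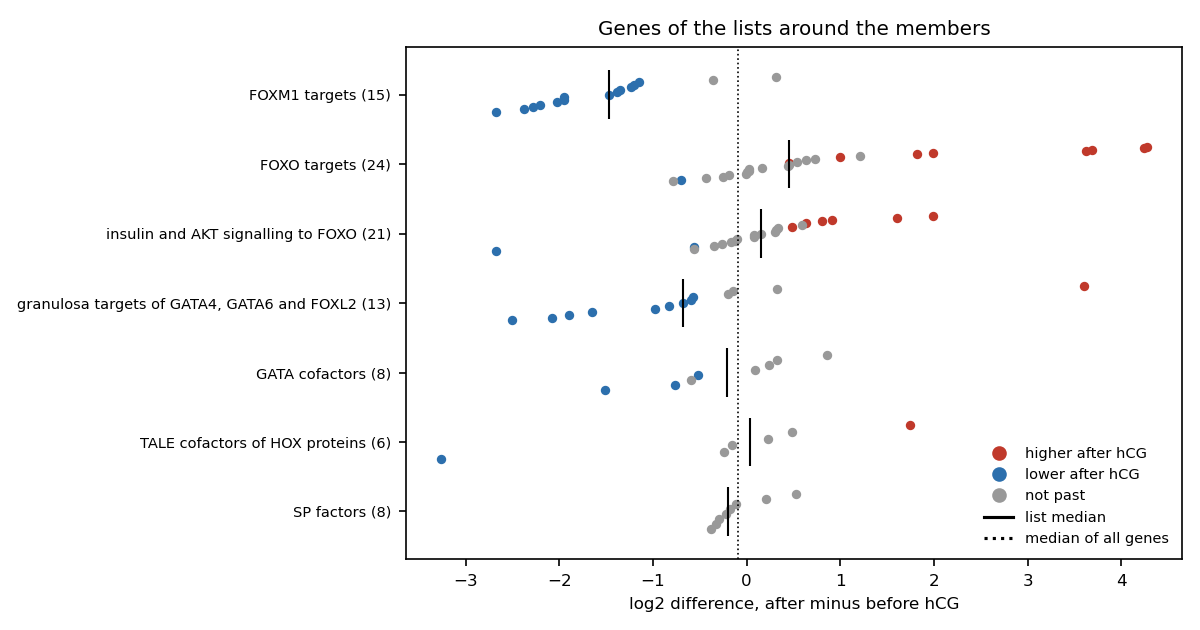
Log2 difference, after minus before hCG (horizontal axis), of each measured gene in 7 lists (number of genes in brackets); red points passed as higher after hCG, blue as lower, grey did not pass. The bar of each list is its median, -1.47 for FOXM1 targets and 0.45 for FOXO targets, and the dotted line is the median of all genes, -0.09.

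The cells were checked against markers. Of 10 measured granulosa markers, all had a mean signal above 5.50, 8 fell after hCG and 2 did not pass, with SERPINE2, INHA and FST the brightest of them. The summed intensity of this list was 41710 to 47297 after hCG and 59122 to 66681 before hCG. Markers of other cell types were read in the same way, since some FOX, SOX, GATA and KLF genes are known in those cells. The table has no zero values and no detection calls, so none of these markers can be called absent.

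Of 11 endothelial markers none passed, and their summed intensity was 615 to 1172 after hCG and 637 to 751 before hCG. The brightest, VWF, PECAM1 and EGFL7, differed by 1.26, 0.01 and -0.04. Of 9 leukocyte markers 1 passed, CSF1R, which fell by 2.09, while TYROBP and CD14 differed by -0.09 and 0.22. The leukocyte list had sums of 487 to 1325 after hCG and 1414 to 1583 before hCG. CSF1R, at log2 9.19 to 9.79, made up a large part of the sums before hCG, and the other 8 markers did not pass. Of 5 erythrocyte markers 2 passed: HBA fell by 1.47 and ALAS2 fell by 0.78, while HBB differed by -1.15. The erythrocyte list had sums of 383 to 1539 after hCG and 1713 to 2363 before hCG. Of 8 surface epithelium markers 2 rose, KRT18 by 2.25 and KRT19 by 1.32, and UPK3B differed by -0.31, with sums of 1026 to 1597 after hCG and 777 to 952 before hCG. KRT19, like KLF5, was lowest in array 4 after hCG, with 9.16, 9.08, 9.46 and 7.57 after hCG against 7.35, 7.89, 7.26 and 7.50 before hCG. The likeness of KRT19 to KLF5 was noticed after the values were seen. EPCAM and MSLN were also lowest in array 4 after hCG, whereas KRT7, KRT18, MUC1, UPK3B and LRRN4 were not. KRT18 was high in all arrays after hCG, and the part of epithelial cells in the KLF5 reading was not tested.

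Of 6 stromal markers 1 rose (TAGLN, by 0.42), with sums of 676 to 1222 after hCG and 691 to 799 before hCG. The brightest, DCN, COL1A2 and COL3A1, differed by 0.92, -0.49 and -0.15. Of 4 theca markers 1 passed, CYP17A1, which fell by 0.47, while NR2F2, GLI1 and PTCH1 differed by 0.45, -0.30 and 0.60. The theca list had sums of 363 to 622 after hCG and 366 to 594 before hCG. Of 9 oocyte markers none passed, with sums of 319 to 390 after hCG and 376 to 395 before hCG, and ZP1, ZP3 and NOBOX differed by -0.21, -0.01 and -0.17. The part of these cell types in the differences of the 102 genes was not tested.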

How the data were processed

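Per the submitters' processing notes, the authors made the probe set values with Affymetrix Expression Console and RMA (robust multi-array average), with no version stated there. Per the labels, 50 ng of total RNA per sample was linearly amplified and biotin-labelled before hybridisation. The deposited values are intensities on a linear scale, and log2 was taken here with no further normalization. After 99 array controls were left out, 52766 probe sets remained. The platform annotation gave 24956 of them 1 symbol, 361 several and 27449 none; symbols were updated through RefSeq gene IDs (24616 matched). None of the 102 symbols changed. For each of the 14132 genes the probe set brightest on average over the 8 arrays was used.

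Tests used limma 3.58.1 (lmFit, then eBayes) in R 4.3.3 and were tested on simulated data. There, 17.4% of planted log2 changes of 0.5 were recovered, 71.4% of changes of 1 and 94.1% of changes of 2. The simulation changed 200 genes, fewer than passed here, so the shares in these data may differ. Not passing does not show that a gene was unchanged. Intervals cover 95% and use limma's moderated spread. Pairs of paralogs were compared by exact permutation over arrays. Precision is limited by having 4 arrays a group. The genes, lists and pairs were chosen with earlier results of these data known. Named with values were the genes that passed, the measured genes of the pairs, 21 measured genes of an index list and the 5 brightest members. To these came up to 3 genes per list and direction and the 3 brightest of each marker list. KLF1, KLF8, KLF13, KLF14, KLF17, FOXN4, FOXO6, GATA1, HOXA9, HOXB6, HOXD3, HOXD13 and, outside the members, CDC25B, NEK2, SP1, SP2, TAGLN and CYP17A1 were named after their values were seen. So were the markers KDR, ROBO4, KRT7, EPCAM, MUC1, LRRN4 and MSLN. Lists were read by counts and medians, with no set test. Alternatives were other probe set rules, an offset, a signal filter, other normalizations, a variance trend, a replicate block and leaving out each array. Sequences were not used here.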

Additional observations from a re-analysis of the deposited data

Results flagged for a closer look

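Among the 82 groups of 4 arrays of the 41 members named by rule, 5 had an array far from the other 3, and about 1 in 20 such groups is expected to show this by chance. KLF2 read 7.58 in array 4 before hCG, with 8.18 to 8.31 in the other 3. KLF6 read 11.55 in the same array, with 12.25 to 12.29 in the other 3. KLF3 read 7.79 in array 4 after hCG, with 8.44 to 8.54 in the other 3. SOX18 read 5.25 in array 1 after hCG, with 5.63 to 5.70 in the other 3, and SOX9 read 5.72 in that array, with 5.97 to 5.99 in the other 3.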

How the results depend on the processing

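None of the 16 members that passed changed direction under any alternative run, and 9 (KLF7, KLF2, FOXJ3, SOX30, FOXM1, FOXO4, GATA4, SOX12 and SOX13) also passed without each array in turn. Leaving out 1 array gave 5 to 8 members higher and 5 to 10 lower (5 lower without array 4 before hCG), and 2699 to 3348 of all genes past the threshold, against 3359. The other alternatives gave 6 to 7 higher and 7 to 11 lower. The labels do not say whether same-numbered samples are paired, and the main fit did not pair them. Correlations of same-numbered arrays were -0.03 to 0.16, which cannot settle the question. The replicate block gave 7 higher and 7 lower, with FOXI1 and FOXN1 lost. Median centring also ended these 2 calls, and repeated quantile normalization, the signal filter and the fit over all probe sets that of FOXI1; averaging probe sets ended those of FOXP1 and HOXD10. No paralog pair passed after adjustment in any alternative run. Leaving out 1 array does not lower the smallest p that the exact test allows. Of all calls, 40.8% were higher with repeated quantile normalization and 52.4% with median centring, against 47.5%.

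Some differences that did not pass turned sign, and the cause was not tested. With all probe sets averaged, the difference was 0.046 for FOXC1, -0.16 for GATA2, -0.018 for KLF4, -0.0081 for SOX17, 0.19 for SOX5 and 0.13 for TBX3. Repeated quantile normalization gave -0.012 for KLF4, -0.028 for KLF6 and 0.022 for SOX5. Median centring gave 0.013 for FOXP2 and 0.025 for SOX5. Leaving out 1 array gave -0.14 to 0.064 for FOXC1, -0.47 to 0.0040 for FOXN3, -0.38 to 0.0055 for FOXO1, -0.15 to 0.17 for FOXP2 and -4.83e-05 to 0.17 for GATA2. It gave -0.31 to 0.040 for KLF10, -0.45 to 0.031 for KLF11, -0.27 to 0.46 for KLF4 and -0.15 to 0.32 for KLF6. For SOX17, SOX18, SOX4 and SOX5 the ranges were -0.025 to 0.11, -0.12 to 0.028, -0.13 to 0.52 and -0.13 to 0.085. The change of KLF10 minus that of KLF11 ran from -0.27 to 0.24, and that of SOX7 minus that of SOX17 from -0.036 to 0.10. The table has no detection calls, which limits what small differences of dim probe sets can show.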

Other observations

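Many genes of a family had their lowest reading in the same array, which was noticed in these data and not tested. Of the 15 KLF genes, 9 were lowest in array 4 among the arrays after hCG, and 11 were lowest in array 4 among those before hCG. Over all genes, array 4 was the lowest for 25.8% after hCG and 22.3% before hCG. KLF2, KLF5 and KLF7 were lowest in array 4 in both groups. Of the 15 SOX genes, 10 were lowest in array 1 after hCG and 6 in array 1 before hCG. Over all genes, array 1 was the lowest for 29.8% after hCG and 22.7% before hCG. Low readings in array 1 after hCG were not particular to SOX genes. They were found in 6 of 11 TBX, 3 of 5 GATA, 10 of 26 HOX and 11 of 30 FOX genes, but in 2 of 15 KLF genes. Of all 102 members, 42 (41.2%) were lowest in that array.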
